A study of Mus musculus with 4 samples.

Results

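The thioredoxin-interacting protein gene Txnip, its alpha-arrestin relatives Arrdc1 to Arrdc4, the glucose-sensing transcription factors ChREBP (Mlxipl) and MondoA (Mlxip), their shared partner Mlx, and thioredoxin itself (Txn1) were described in mouse pancreatic islets. The 9 genes were taken by symbol from a count table of 56748 genes, and all 9 passed the filter on low counts that left 15665 genes for testing. RNA was sequenced from primary islets of male C57BL/6J mice aged 6 to 8 weeks. They were exposed for 2 h to glucose at 2.5 mM in 1 group and at 25 mM in the other, and each group had 2 libraries. Every islet sample, at either level, also received cycloheximide, which blocks translation, at 100 µg/mL for the last 15 min. All islets had first recovered overnight in complete medium that contained glucose and had then been kept in glucose-free medium, so no untreated islets were measured. The study states that each biological replicate was pooled from several animals, but does not say so separately for the RNA libraries. Single animals cannot be told apart here.

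TXNIP binds reduced thioredoxin and, like the ARRDC proteins, carries the arrestin fold. These adaptors bring membrane proteins to NEDD4-type ubiquitin ligases. ChREBP and MondoA are kept largely out of the nucleus when glucose is scarce. When sugar phosphates accumulate they pair with MLX and bind carbohydrate response elements, which are built from a pair of E-box-like sites with a short gap between them. Txnip and Arrdc4 are known targets of these factors, and in beta cells Txnip is known for its link to oxidative stress and cell death.

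The sequences just before the transcription start are shown for Txnip and Arrdc4, as known targets, and for Mlx and Mlxipl, as genes of the factors themselves that hold a full E-box. Each is the 250 bases before a RefSeq start on GRCm38.p6, written 5′ to 3′ on the gene's own strand. Capitals mark CACGNG or its complement CNCGTG, so both strands were searched and a full E-box, CACGTG, is counted among these E-box-like sites. The windows are chr3:96557707-96557956 (plus strand) for Txnip, chr7:68749239-68749488 (minus strand) for Arrdc4, chr11:101087040-101087289 (plus strand) for Mlx and chr5:135089640-135089889 (plus strand) for 1 of the starts of Mlxipl.
Txnip: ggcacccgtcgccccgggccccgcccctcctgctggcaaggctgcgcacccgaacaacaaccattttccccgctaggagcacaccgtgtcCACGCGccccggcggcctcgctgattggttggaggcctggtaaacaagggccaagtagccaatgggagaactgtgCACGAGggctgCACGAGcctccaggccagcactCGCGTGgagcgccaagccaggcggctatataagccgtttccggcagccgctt
Arrdc4: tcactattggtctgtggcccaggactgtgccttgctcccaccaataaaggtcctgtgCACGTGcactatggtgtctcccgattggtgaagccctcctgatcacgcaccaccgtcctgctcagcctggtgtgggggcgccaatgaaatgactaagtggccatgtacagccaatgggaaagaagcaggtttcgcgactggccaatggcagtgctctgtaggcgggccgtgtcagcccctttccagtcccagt
Mlx: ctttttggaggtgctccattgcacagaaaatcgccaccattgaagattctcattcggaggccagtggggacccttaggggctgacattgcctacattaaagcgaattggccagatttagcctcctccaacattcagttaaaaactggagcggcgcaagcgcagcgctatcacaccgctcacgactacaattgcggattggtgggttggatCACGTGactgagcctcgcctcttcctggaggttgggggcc
Mlxipl: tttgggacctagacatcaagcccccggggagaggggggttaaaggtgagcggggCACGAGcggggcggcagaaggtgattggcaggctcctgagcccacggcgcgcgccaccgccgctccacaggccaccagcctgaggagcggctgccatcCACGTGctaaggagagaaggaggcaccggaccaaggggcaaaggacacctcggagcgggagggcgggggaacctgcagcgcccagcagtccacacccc

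The Txnip window held 4 such sites, beginning 160, 85, 74 and 52 bases before the start. The middle pair, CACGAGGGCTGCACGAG, had 5 bases between its sites, an arrangement found in 24 (0.0731%) of 32851 RefSeq windows of the same length, and no other gene of the 9 had it. The Arrdc4 window held 1 full E-box 193 bases before the start, that of Mlx 1 at 40 bases and that of Mlxipl 1 at 98 bases, beside an E-box-like site at 196 bases. A full E-box was present in 6.02% of all windows and any E-box-like site in 23.5%. Arrdc1 had 2 sites and Arrdc2 had 1, whereas the windows of Arrdc3, Mlxip, Txn1 and the other start of Mlxipl had none. The CCAAT box, searched on both strands, occurred 6 times in the Arrdc4 window and 2 times in that of Txnip, and 33.8% of all windows held it. These matches describe letters in the windows, and binding was not measured.

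Total counts per library ran from 17279505 to 19136068, and the 9 genes had between 148 and 5188 reads in a library. The second library at 25 mM stood apart, with correlations of log2 CPM (counts scaled by library size) to the others of 0.939 to 0.96, against 0.967 to 0.981 among the rest. Its ratio to the second 2.5 mM library was lower for longer genes, with a median log2 ratio of 0.53 in the shortest sixth of tested genes and −0.66 in the longest, against 0.07 and −0.13 for the first replicates. Summed CPM of the 9 beta cell markers was 81459 and 111273 at 2.5 mM and 87980 and 201053 at 25 mM. The blocked edgeR fit called 3 of the 9 higher, where it called 1.85% of all tested genes higher. It called no gene of the other marker lists in either direction. The sum of the 3 delta cell markers was higher in both 25 mM libraries (1468 and 1418 CPM against 1637 and 2496 CPM). The summed alpha cell markers and the PP cell marker overlapped between the groups and were highest in the second 25 mM library, at 40561 and 3701 CPM. The 7 endothelial markers (83.45, 233.5, 94.75 and 233.8 CPM, in the order 2.5 mM replicates 1 and 2, then 25 mM replicates 1 and 2) and the 7 stellate markers (529.3, 100.7, 497.3 and 126.9 CPM) differed by replicate number more than by glucose. The 13 acinar markers, 12 of them tested, summed to 334.3 and 383.1 CPM at 2.5 mM and 806.9 and 329 CPM at 25 mM. No marker was at 0 in all libraries. The part of cell makeup and of gene length in the results was not tested, apart from the fits with the length trend removed that are given beside them.

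Txnip was the gene of the 9 with the largest difference between glucose levels. It had 706 and 955 reads at 2.5 mM and 3222 and 5188 reads at 25 mM, which was 39.38 and 51.27 CPM against 162.6 and 292.5 CPM. Both 25 mM libraries lay above both 2.5 mM libraries, and the lower of the former was still 3.17 times the higher of the latter. Mean CPM was 45.32 ± 8.41 (SD, n = 2) at 2.5 mM and 227.5 ± 91.9 (SD, n = 2) at 25 mM, a 5.02-fold difference. Within replicate numbers, the fold was 4.13 for the first and 5.70 for the second. In bulk islets, more cells that express the gene and more RNA per cell cannot be told apart.

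The fitted log2 fold change of Txnip was 2.33 (SE 0.331, 95% interval 1.55 to 3.11, 2 libraries per group) in edgeR's quasi-likelihood test without a block. Its adjusted p of 0.278 missed the threshold of 0.05, as did that of every other gene (0%, 0 of 15665 called, with 1643 genes at an unadjusted p under 0.05). With the replicate number as a block, the log2 fold change was 2.28 (SE 0.29) and the edgeR adjusted p was 6.31e-12, in a fit that called 1.85% of tested genes higher and 5.01% lower. DESeq2 without a block gave 2.35 with an adjusted p of 3.89e-09, where 0.458% of 13966 genes were called higher and 0.866% lower, and limma-voom without a block gave an adjusted p of 0.348. Over 16 alternatives the log2 fold change ranged from 1.85 without the second 25 mM library (edgeR adjusted p = 0.0817) to 2.69 without the first (edgeR adjusted p = 0.00115). With the length trend removed, it was 2.25 (edgeR adjusted p = 0.0474). An exact permutation test of 2 libraries against 2 cannot give a two-sided p below 0.33.

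**Figure D1:**
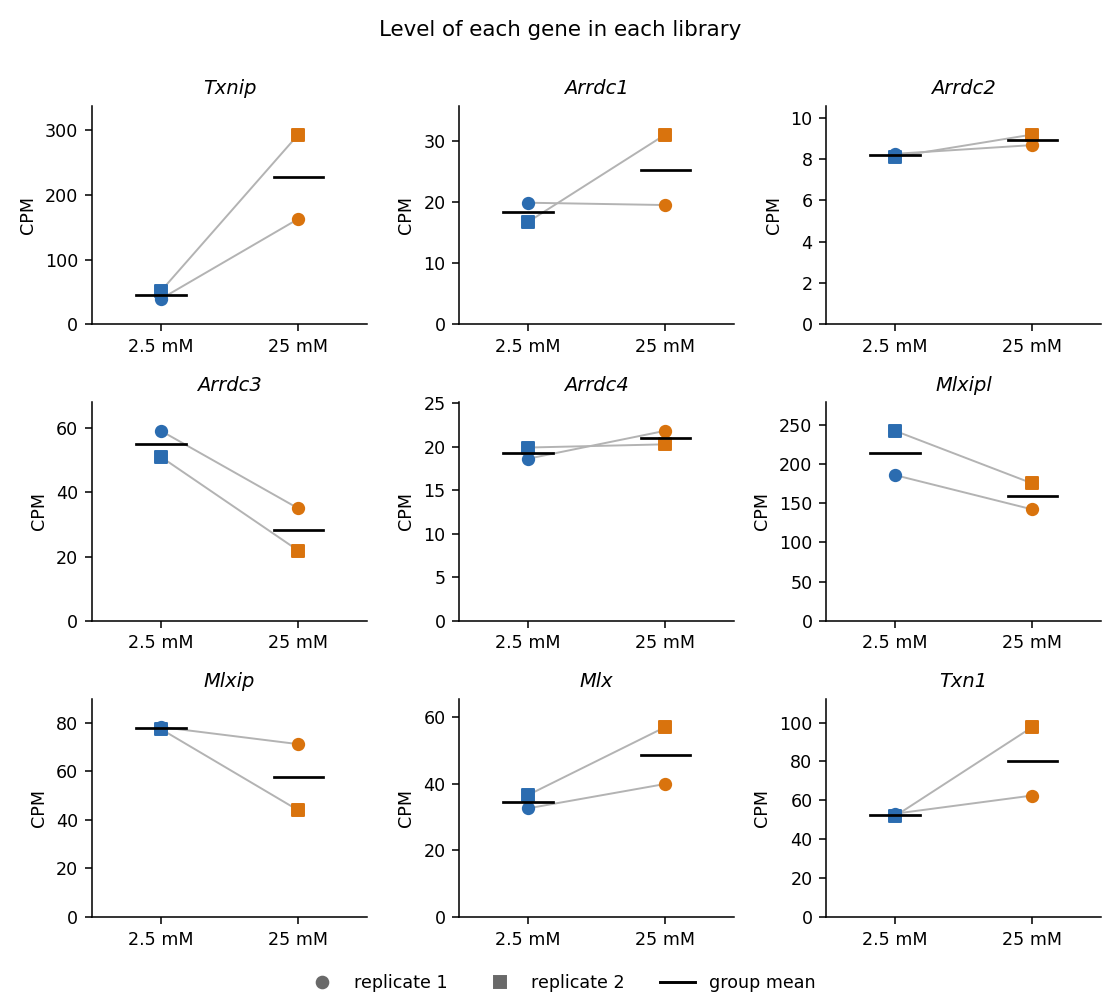
CPM of the 9 genes in the 4 libraries, 1 panel per gene, against glucose (2.5 mM in blue, 25 mM in orange); circles are replicate 1, squares replicate 2, grey lines join equal numbers and black bars are group means. Txnip goes from 39.38 and 51.27 CPM to 162.6 and 292.5 CPM, Arrdc3 is lower at 25 mM along both lines, and all vertical axes start at 0.

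Arrdc3, an adaptor for beta-adrenergic receptors and integrins, went the other way. It had 59.24 and 51.11 CPM at 2.5 mM and 35.02 and 21.87 CPM at 25 mM, from 1062, 952, 694 and 388 reads. Both 25 mM libraries lay below both 2.5 mM libraries, with the second the lowest. Mean CPM was 55.17 ± 5.75 (SD, n = 2) against 28.44 ± 9.29 (SD, n = 2), and the fold was 0.591 within the first replicates and 0.428 within the second. The log2 fold change was −0.95 (SE 0.283, 95% interval −1.62 to −0.288, edgeR adjusted p = 0.431) without the block and −0.99 (SE 0.28, edgeR adjusted p = 0.0121) with it. DESeq2 did not call it without a block (adjusted p = 0.109) or with it (adjusted p = 0.0659). Without the second 25 mM library the value was −0.64 (edgeR adjusted p = 0.481), and without the first it was −1.33 (edgeR adjusted p = 0.00464). Arrdc3 has 6266 exonic bases, above the median of 4129 over tested genes, and after removal of the length trend its value was −0.80 (edgeR adjusted p = 0.32) without the block and −0.82 (edgeR adjusted p = 0.00338) with it.

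Arrdc4, the closest relative of Txnip in its known dependence on ChREBP and MondoA, differed little in level between the groups. Its level was 18.63 and 19.92 CPM at 2.5 mM and 21.85 and 20.29 CPM at 25 mM. The groups did not overlap, but the lowest 25 mM library and the highest 2.5 mM library were 20.29 and 19.92 CPM. The log2 fold change was 0.13 (95% interval −0.41 to 0.667, edgeR adjusted p = 0.846), an interval that does not reach the lower bound of 1.55 for Txnip. Across all 16 alternatives the value for Arrdc4 lay between 0.08 and 0.23, and none called it.

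Arrdc2, the least abundant of the family per length, had 8.255 and 8.106 CPM at 2.5 mM and 8.678 and 9.189 CPM at 25 mM. Its 148 reads in the first 2.5 mM library have a 95% Poisson interval of 125.1 to 173.9, which covers counting error only and takes in the 151, 172 and 163 reads of the other libraries. The log2 fold change was 0.13 (95% interval −0.548 to 0.802, edgeR adjusted p = 0.884). Arrdc1, which takes part in the budding of vesicles from the cell surface, had 19.91 and 16.75 CPM at 2.5 mM and 19.53 and 31.06 CPM at 25 mM. Its groups overlapped, since only the second 25 mM library was high, and the pair folds were 0.981 and 1.85. The log2 fold change was 0.46 (95% interval −0.228 to 1.16, edgeR adjusted p = 0.565).

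**Figure D2:**
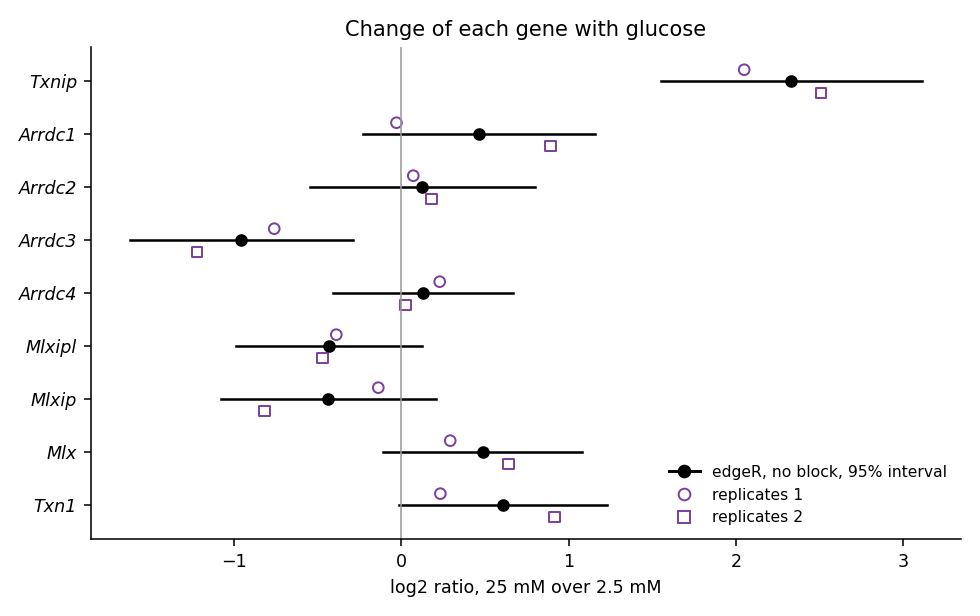
Log2 ratio of 25 mM over 2.5 mM glucose for each gene; black points and bars are the edgeR fit without a block and its 95% interval, and open purple circles and squares are the ratios of the first and second replicates. The interval of Txnip (1.55 to 3.11) lies wholly above 0, that of Arrdc3 (−1.62 to −0.288) wholly below, and the other 7 take in 0.

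Levels can be set side by side between genes only after division by exonic length. On that scale, CPM per kilobase, Txnip made up 33.9% and 42.4% of the summed level of Txnip and Arrdc1 to Arrdc4 at 2.5 mM, and 70.8% and 79.8% at 25 mM. The sum of all 5 was 37.2 and 38.7 CPM per kilobase at 2.5 mM and 73.5 and 117 at 25 mM. The sum without Txnip was 24.6 and 22.3 at 2.5 mM and 21.5 and 23.7 at 25 mM, so those groups overlapped. The level of Txnip was 1.33 and 2.01 times that of Arrdc3 at 2.5 mM and 9.32 and 26.8 times at 25 mM. Division by length does not remove the length trend of the second 25 mM library from these shares and ratios. Arrdc3 has 6266 exonic bases and Txnip has 3123.

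**Figure D3:**
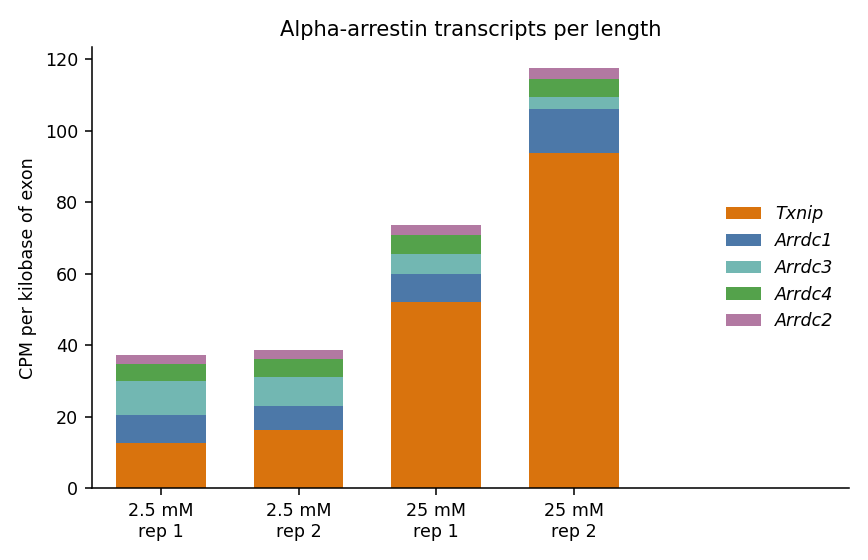
Stacked levels of Txnip and Arrdc1 to Arrdc4 in each library, in CPM per kilobase of exon. The Txnip share grows from 33.9% and 42.4% at 2.5 mM to 70.8% and 79.8% at 25 mM, while the other segments together stay between 21.5 and 24.6.

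Txn1, the cytosolic thioredoxin to which TXNIP binds, had 53.1 and 51.8 CPM at 2.5 mM and 62.46 and 97.69 CPM at 25 mM. The groups did not overlap, and the second 25 mM library was the highest. The log2 fold change was 0.61 (95% interval −0.0142 to 1.23, edgeR adjusted p = 0.484) without the block and 0.58 (edgeR adjusted p = 0.239) with it. At 1051 exonic bases Txn1 was the shortest of the 9, shorter than all but 6.94% of tested genes, and with the length trend removed its value was 0.32. Per length, the level of Txnip was 25% and 33.3% of that of Txn1 at 2.5 mM and 87.6% and 101% of it at 25 mM. This ratio of mRNA levels was 3.23 times higher at 25 mM, and says nothing of the proteins.

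Among the transcription factors, Mlxipl had the highest mean level per length at both glucose levels. It had 186.1 and 242.7 CPM at 2.5 mM and 142.2 and 175.4 CPM at 25 mM. Both 25 mM libraries were lower than both others, with pair folds of 0.764 and 0.723, and the log2 fold change was −0.43 (95% interval −0.989 to 0.122, edgeR adjusted p = 0.529). Mlxip had 78.2 and 77.36 CPM at 2.5 mM and 71.14 and 43.91 CPM at 25 mM. Its log2 fold change was also −0.43 (95% interval −1.08 to 0.207, edgeR adjusted p = 0.563), but most of the difference was in the second replicates (pair folds 0.91 and 0.568). With 8326 exonic bases it was the longest of the 9, and the value was −0.18 with the length trend removed. Mlx had 32.58 and 36.56 CPM at 2.5 mM and 39.91 and 56.99 CPM at 25 mM, with a log2 fold change of 0.49 (95% interval −0.111 to 1.08, edgeR adjusted p = 0.518) and of 0.27 with the length trend removed. The per-length ratio of Mlxipl to Mlxip was 3.58 and 4.72 at 2.5 mM and 3 and 6 at 25 mM, which overlapped.

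Per length, the order of mean levels at 2.5 mM was Txn1 (49.91 CPM per kilobase), Mlxipl (38.71), Mlx (17.29), Txnip (14.51), Mlxip (9.342), Arrdc3 (8.805), Arrdc1 (7.303), Arrdc4 (4.772) and Arrdc2 (2.531). The ranges of Mlx and Txnip overlapped, as did those of Mlxip and Arrdc3, and the other neighbours were apart. At 25 mM, Txnip (72.85) stood next to Txn1 (76.19), and their ranges overlapped. Mlxipl (28.67) and Mlx (24.24) followed and overlapped with each other. Arrdc1 (10.08), Mlxip (6.909), Arrdc4 (5.217) and Arrdc3 (4.539) overlapped each with the next, and Arrdc2 (2.764) was again the lowest.

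Across the 9 genes, the blocked fit called 1 higher (Txnip) and 1 lower (Arrdc3) and left 7 uncalled, beside 1.85% and 5.01% of all tested genes. DESeq2 called 1 higher, beside 0.458% of 13966 genes. The edgeR fit without a block called 0, with 2 at an unadjusted p under 0.05, as were 1643 of all 15665 tested genes. The study's thresholds ask for a log2 fold change beyond 0.58 in either direction at an unadjusted p under 0.05. The study applied them to DESeq2. Applied here to edgeR without a block, they passed Txnip as higher and Arrdc3 as lower. There, 3.63% of tested genes passed as higher and 6.33% as lower. In DESeq2 without a block, Txn1 also passed them as higher (0.63, DESeq2 unadjusted p = 0.0399). The share of all genes that passed them in DESeq2 was not computed. In CPM, 5 of the 9 genes had both 25 mM libraries above both 2.5 mM libraries and 3 had both below, beside 22.4% and 25.9% of all tested genes. The median log2 fold change of the 9 was 0.13, against −0.01 over all tested genes. Without the first 25 mM library, which leaves the library that stood apart to represent 25 mM, edgeR called 6 of the 9: Txnip, Arrdc1 (adjusted p = 0.0443), Mlx (adjusted p = 0.0259) and Txn1 (adjusted p = 0.00697) higher, and Arrdc3 and Mlxip (adjusted p = 0.0122) lower. That fit called 7.57% of its 16290 tested genes higher and 12.4% lower. Without the second, it called 0.

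**Figure D4:**
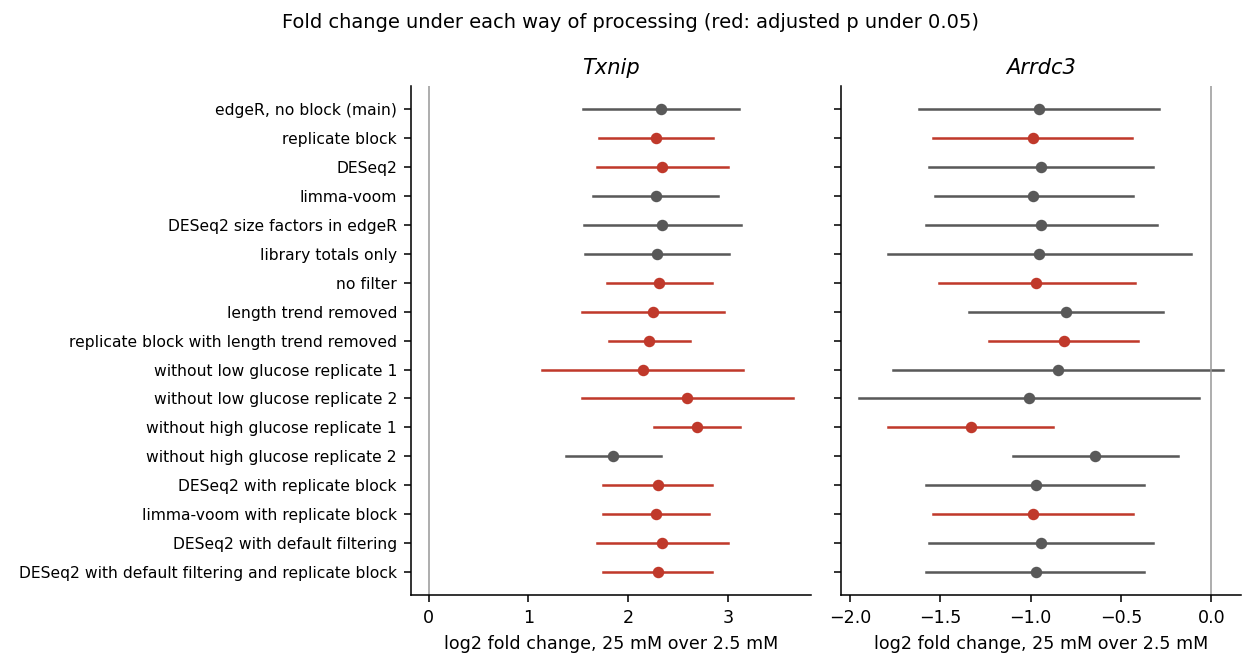
Log2 fold change of Txnip and Arrdc3 under each way of processing, with 95% intervals, where red marks an adjusted p under 0.05. The DESeq2 and limma-voom intervals use normal quantiles. Those of limma-voom without a block are therefore narrower than its t test implies and cannot be compared with the edgeR intervals. Txnip stays between 1.85 and 2.69 and passes in 12 of 16 alternatives, and Arrdc3 stays between −1.33 and −0.64 and passes in 5.

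In the 6 lists of related genes, 59 of 69 genes were tested. Of the known or proposed ChREBP targets, 21 of 26 were tested, and the blocked fit called 1 higher and 0 lower, where it called 1.85% of all tested genes higher and 5.01% lower. That gene was Rgs16, which speeds the shut-off of G protein signals. It had 16.06 and 12.72 CPM at 2.5 mM and 31.79 and 43.46 CPM at 25 mM, so the groups did not overlap. Its log2 fold change was 1.39 (SE 0.269, edgeR adjusted p = 0.400) without the block and 1.38 (SE 0.285, edgeR adjusted p = 0.00016) with it, and the DESeq2 adjusted p was 0.00386. Without the second 25 mM library it was 1.16 (edgeR adjusted p = 0.292). The genes of lipid synthesis on the list were not called: Fasn, the fatty acid synthase, had 192.1 and 235.4 CPM at 2.5 mM and 212.2 and 217.8 CPM at 25 mM. Pklr, the liver-type pyruvate kinase, had 20.3 and 14.87 against 18.11 and 13.02 CPM. The median log2 fold change of the list was 0.14.

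The list of MLX partners and MAX had 1 of 4 genes called lower and 0 higher in the blocked fit, against 5.01% and 1.85% of all tested genes. It was Mnt, a repressor that pairs with MAX or MLX, with 100.3 and 104.7 CPM at 2.5 mM and 53.89 and 53.39 CPM at 25 mM. The replicates of each group lay close together, and the groups did not overlap. The log2 fold change was −0.93, with an edgeR adjusted p of 0.400 without the block and 0.021 with it, and a DESeq2 adjusted p of 0.0427. DESeq2 with the block gave an adjusted p of 0.0504, or of 0.047 at its default filtering, and edgeR without the block after removal of the length trend gave −0.89 (adjusted p = 0.212). Without the second 25 mM library it was −0.92 (edgeR adjusted p = 0.287).

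No gene of the other 4 lists was called by edgeR with or without the block or by DESeq2. The thioredoxin list of 15 genes also held Map3k5 and Nlrp3, which are not part of the thioredoxin system itself. Of the 15, 9 were higher in both 25 mM libraries and 1 (Map3k5) was lower, beside 22.4% and 25.9% of all tested genes. In edgeR, 0 had an unadjusted p under 0.05. The median log2 fold change was 0.41, against −0.01 over all tested genes, and it was 0.24 with the length trend removed and 0.12 without the second 25 mM library. The peroxiredoxin Prdx1, which thioredoxin keeps reduced, had 155.1 and 153.5 CPM at 2.5 mM and 178 and 270.6 CPM at 25 mM, with the second 25 mM library again the highest. Of 10 tested NEDD4-type ligases and their adaptors, 6 were lower in both 25 mM libraries and 0 were higher, beside the same 25.9% and 22.4%. Their median log2 fold change was −0.35, but −0.03 with the length trend removed and −0.12 without the second 25 mM library, and their median exonic length was 9290 bases against 4129 over tested genes. Smurf2 was nearest to a call, at −0.76 without the block and −0.81 with it (blocked edgeR adjusted p = 0.0602). Without the second 25 mM library its value was −0.40. The median was −0.14 over 5 tested arrestin-fold relatives and 0.39 over 4 tested cargo and partner genes of the alpha-arrestins. Arrdc5, the remaining alpha-arrestin, had at most 1 read in a library and was not tested.

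**Figure D5:**
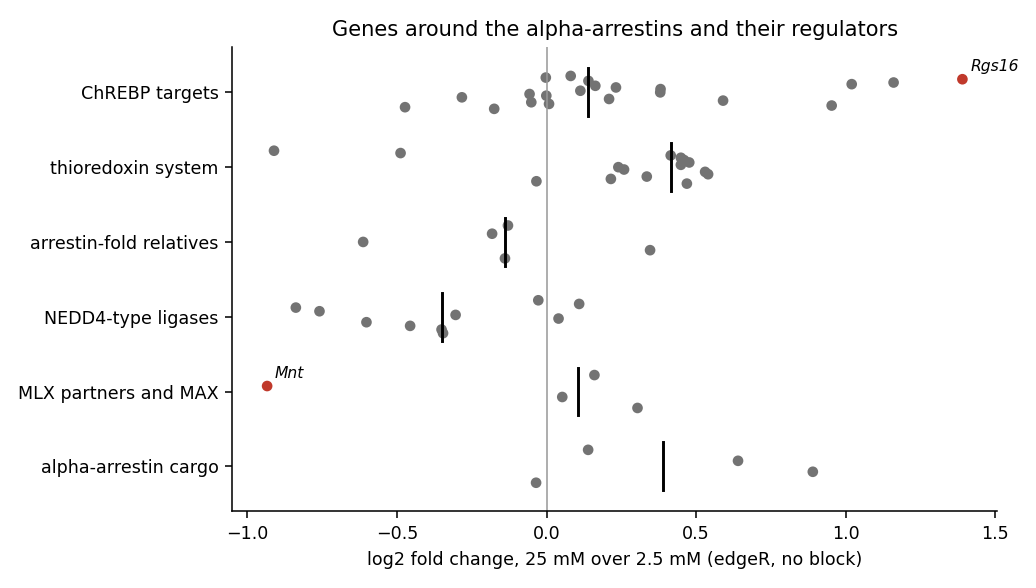
Log2 fold change (edgeR, no block) of each tested gene in the 6 lists, 1 row per list; black bars are list medians and red points passed an adjusted p of 0.05 in the blocked fit. Rgs16 at 1.39 and Mnt at −0.93 are the red points, and the medians run from −0.35 to 0.41.

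The genes whose levels over the 4 libraries lay closest to Txnip, by Euclidean distance of centred log2 CPM, were the lncRNA genes Gm44850 (0.214), Gm3294 (0.219) and Mir22hg (0.279), the purinergic receptor gene P2ry1 (0.329) and Slc23a3 (0.341). P2ry1 had 13.72 and 19.11 CPM at 2.5 mM and 45.86 and 87.32 CPM at 25 mM, and Mir22hg, the host transcript of a microRNA, had 2.901 and 3.114 against 9.435 and 18.49 CPM. As for Txnip, the second 25 mM library was the highest for both. The genes closest to Arrdc4 were Sun1 (0.0323), Gfm1 (0.0382), 5031439G07Rik (0.0407), Tmem167 (0.0424) and Apip (0.0426). With 4 libraries such likeness is a description only.

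In the table's own positions, for which no build is given here, Txnip (ENSMUSG00000038393) lies on chromosome 3 from 96465273 to 96469199 on the plus strand, and Arrdc3 (ENSMUSG00000074794) on chromosome 13 from 81031503 to 81044161 on the plus strand. The other alpha-arrestin genes lie on minus strands: Arrdc1 (ENSMUSG00000026972) on chromosome 2 from 24815364 to 24825264, Arrdc2 (ENSMUSG00000002910) on chromosome 8 from 71287773 to 71292364, and Arrdc4 (ENSMUSG00000042659) on chromosome 7 from 68386743 to 68398989. Mlxipl (ENSMUSG00000005373) and Mlxip (ENSMUSG00000038342) are both on the plus strand of chromosome 5, from 135118744 to 135167236 and from 123532861 to 123595995. Mlx (ENSMUSG00000017801) lies on the plus strand of chromosome 11 from 100978103 to 100983033, and Txn1 (ENSMUSG00000028367) on the minus strand of chromosome 4 from 57943373 to 57956411. All 9 are protein-coding. Txnip overlaps the antisense lncRNA gene Gm15441, which had 6, 13, 13 and 21 reads, far fewer than Txnip. Mlx overlaps the antisense gene Psmc3ip, which had 58, 65, 50 and 49 reads. Since strand-specific counting is not stated, reads from such partners cannot be told apart. The processed pseudogene Txn-ps1 had 0 reads in all 4 libraries, but reads shared between it and Txn1 could have been placed or dropped in a way not stated in the sources used here.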

How the data were processed

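Poly(A) RNA-seq libraries of mouse islets were analysed, 2 per glucose level. The authors used fastp for trimming, HISAT2 2.2.1 for alignment and featureCounts for counting, and deposited raw read counts per gene, not normalised, with each gene's exonic length. The labels name mm10 and DESeq2 1.42.0, but of 52036 genes also found in GENCODE vM21 only 1448 began at an equal position, so positions are given without a build. Strand and multi-mapping settings are not given in the sources used here.

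The main test was the quasi-likelihood test of edgeR 4.0.16, run in R 4.3.3 (TMM, filterByExpr, two-sided, Benjamini-Hochberg over 15665 genes, threshold 0.05), without a block. Libraries totalled 17279505 to 19136068 counts. Counting intervals cover counting error only. CPM values used TMM factors, and log2 CPM a prior count of 2. The standard error is the log2 fold change over the square root of F. The study divided the islets of each mouse between both glucose levels, and same-numbered libraries are read as pairs by inference. Their deviations correlated (r = 0.409 over 15665 genes), but with 2 pairs swapping numbers only turns the sign. The blocked fit has infinite prior degrees of freedom, so a gene's own spread counts for little. P-values of the main test rest on the spread between these samples. In that test too, a gene's own spread is moderated by that of other genes (5.09 prior degrees of freedom). P-values of the blocked fit rest on a spread shared across genes, and do not measure a gene's own spread. The edgeR intervals without the filter, and without either low-glucose library, also had the width that normal quantiles give. Their p-values should be read with equal caution. The fits were tested on simulated data. These were independent counts without a replicate effect, an outlying library or a length trend, so the handling of such features was not tested.

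DESeq2 1.42.0 (independent filtering set to the 0.05 threshold) and limma-voom (limma 3.58.1) were alternatives, with other scalings, no filter, removal of a loess trend (span 0.5) on exonic length, and leaving out each library. DESeq2 and limma-voom with the block, and DESeq2 with its default filtering level of 0.1, were added after seeing the data. That default was tried because it gave the same split of calls as an earlier analysis of these counts, and it stands as an alternative only.

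The genes and lists were chosen with earlier results of these data known. Named were all 9 genes, the genes of each list past the threshold in the unblocked, blocked or DESeq2 fit (at most 6), and the 5 genes most like Txnip and Arrdc4. Fasn, Pklr, Prdx1, Map3k5, Nlrp3, Smurf2 and Arrdc5 were named after their values were seen. Promoter windows were from RefSeq (GRCm38.p6), which matched all 9 genes.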

Additional observations from a re-analysis of the deposited data

How the results depend on the processing

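Directions did not change: of 144 values of the 9 genes under alternatives, 123 kept their side of the threshold, 21 newly passed it, and 0 reversed. Txnip passed with the replicate block (log2 fold change 2.28), in DESeq2 (2.35), without the filter (2.31), with the length trend removed (2.25) and with both block and trend removal (2.21). It also passed in DESeq2 (2.30) and limma-voom (2.28) with the block, and under DESeq2's default filtering without (2.35) and with the block (2.30). Leaving out 1 library gave 1.85 to 2.69. The number of genes called moved from 0 to 1075 with the replicate block, 185 in DESeq2, 2 with DESeq2 size factors in edgeR and 597 without the filter. It was 12 with the length trend removed, 1364 with block and trend removal and 1559 under the study's thresholds in edgeR without a block. With the block, DESeq2 called 261 and limma-voom 970. Leaving out 1 library gave 5 (without the second 25 mM library) to 3253 (without the first). Limma-voom and library totals alone called 0.

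DESeq2's default filtering, chosen after seeing the data, called 185 genes in all as before, but 55 higher and 130 lower in place of 64 and 121, and 256 with the block. Of the 9 genes, 2 were called with the block, without the filter, with block and trend removal and by limma-voom with the block. The study's thresholds in edgeR without a block also passed 2. DESeq2 called 1 with either filtering and with or without the block, trend removal alone gave 1, and leaving out 1 library gave 0 to 6. Of the listed genes, 2 were called with the block, in DESeq2, without the filter and by limma-voom with the block, and 7 with block and trend removal. DESeq2 with the block called 1, and 2 under default filtering, with or without the block. Leaving out 1 library gave 0 to 18. The causes were not tested.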
